A study of Homo sapiens with 6 samples.

Results

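The genes described here are 10 genes that lie near TUSC3 on 8p22 and the adjoining short arm of human chromosome 8, namely LONRF1, DLC1, SGCZ, MSR1, ZDHHC2, CNOT7, VPS37A, MTMR7, PDGFRL and ASAH1. They were chosen by name from their position, with earlier results of these data known. Each was measured by 1 probe set, so that 10 of 10 were found among the 23752 genes of the table. The data are 6 Affymetrix arrays of SW480, an established cell line from a human colorectal adenocarcinoma. Cells had been transiently transfected with the plasmid pTarget carrying TUSC3 (TUSC3, 3 arrays), and their controls with pTarget without an insert (EV, 3 arrays). Both groups thus share the cell line, the liposome transfection and the vector backbone, and added TUSC3 is transient and comes from the plasmid, not from the chromosomal gene. The labels number the replicates 1 to 3 in each group and do not say whether they came from separate cultures, so p-values measure the spread between these arrays, which may be technical.

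TUSC3 encodes a subunit of the oligosaccharyltransferase, which attaches N-glycans to proteins in the endoplasmic reticulum. The short arm of chromosome 8 is often lost in colorectal and other carcinomas, and TUSC3, DLC1, PDGFRL and the further neighbour MTUS1 have each been studied as candidate tumour suppressors of the region. The genes around TUSC3 do not form 1 pathway. They include broadly used enzymes and sorting factors (ZDHHC2, CNOT7, VPS37A, ASAH1, LONRF1), a GTPase-activating protein (DLC1) and genes known from restricted tissues such as muscle (SGCZ) and macrophages (MSR1).

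Levels are log2 values from RMA, and differences are TUSC3 minus EV on the same scale. The arrays had the same median, 5.50, and nearly identical value distributions, so a shift of most genes one way could not be seen. No detection call was available. The signal of a gene was therefore set against 354 olfactory receptor genes, most of which are silent outside the olfactory epithelium. Their EV means had a median of 3.07 and a 95th percentile of 4.70, and a signal up to that percentile is called the silent range here. Probe sets differ in how brightly they bind, so the place of a gene relative to this range describes its signal and does not order transcript amounts between genes. Of all genes, 58.9% lay above the silent range in EV, as did 10 of 10 measured housekeeping genes.

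The cells carried epithelial signal. EPCAM averaged 12.39 in TUSC3 and 12.44 in EV, the intestinal transcription factor CDX2 8.05 in TUSC3 and 7.93 in EV, and KRT8 6.51 in TUSC3 and 6.69 in EV, while the colon markers KRT20 (4.26 in TUSC3, 4.23 in EV) and CDH17 (3.76 in TUSC3, 3.66 in EV) lay within the silent range.

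Native TUSC3 signal was low in SW480, and the genes on either side of it were low as well. The plasmid raised TUSC3 to 13.13, 13.11 and 13.09 in TUSC3 arrays, against 4.57, 4.33 and 4.63 in EV arrays, a difference of 8.60 (limma, adjusted p = 7.71e-08). RNA came from whole cultures, so a change in some of the cells and a smaller change in every cell cannot be told apart. The EV mean of 4.51 lay within the silent range, 0.20 under its upper end, and 92.9% of olfactory receptor genes were at or below it. Going along the chromosome in RefSeq order, TRMT9B, DLC1, C8orf48, SGCZ, TUSC3 and MSR1 follow each other as protein-coding genes. Of these 6, 5 lay within the silent range in EV, the exception being DLC1, while over all genes 58.9% lay above it. The ends of this stretch were set with the values known, so the count describes these genes and tests nothing. The genes next to its ends were above the silent range in EV, LONRF1 before TRMT9B at 6.90 and FGF20 after MSR1 at 7.16. The count depends on the cutoff: with the 90th percentile of olfactory receptor genes, 4.28, as upper end, TUSC3 and, barely, TRMT9B were above as well. TRMT9B averaged 4.20 in TUSC3 and 4.28 in EV, and C8orf48 3.65 in TUSC3 and 3.52 in EV. These neighbours, and those named in the next paragraph, were named for their position after their values had been seen.

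On the far side of MSR1, genes above and within the silent range alternated. FGF20, which encodes a secreted growth factor, averaged 7.04 in TUSC3 and 7.16 in EV. MICU3, a regulator of mitochondrial calcium uptake, averaged 2.48 in TUSC3 and 2.49 in EV. They are followed by ZDHHC2, CNOT7 and VPS37A, all above the silent range, then MTMR7 within it, the cationic amino acid transporter gene SLC7A2 above it (5.65 in TUSC3 and 5.55 in EV), PDGFRL within it, MTUS1 above it (5.13 in TUSC3, 5.43 in EV) and FGL1 within it (3.00 in TUSC3, 2.95 in EV). SLC7A2 and MTUS1 exceeded the range by little, and their EV means lay under the 99th percentile of olfactory receptor genes, 5.77. PCM1, which encodes a centrosomal scaffold protein and lies next to ASAH1, had 10.86 in TUSC3 and 10.91 in EV. From LONRF1 to ASAH1, 10 of 19 measured listed genes, TUSC3 included, lay above the silent range.

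**Figure D1:**
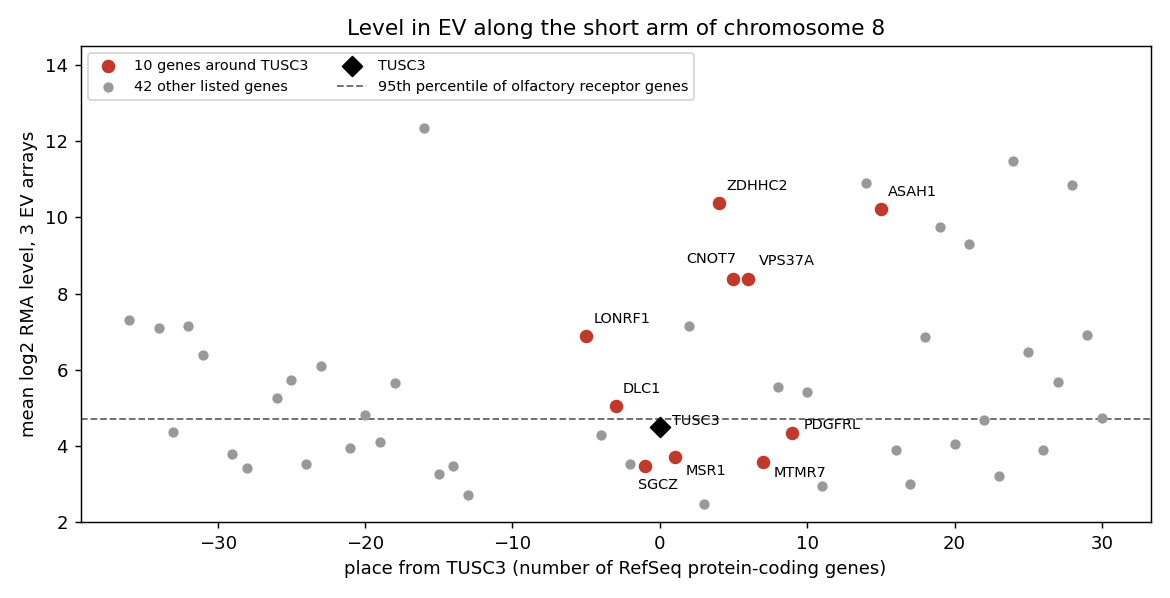
Mean log2 RMA level on the 3 EV arrays (vertical axis) against place along the short arm of chromosome 8, counted in RefSeq protein-coding genes from TUSC3 (horizontal axis); red points are the 10 genes around TUSC3, grey points 42 other listed genes of the arm, and the dashed line is the 95th percentile of olfactory receptor genes, 4.70. TUSC3, at 4.51, sits just under the line with SGCZ and MSR1 below it on either side, while ZDHHC2, CNOT7 and VPS37A lie well above it a few genes further on.

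Of the 10 genes, 6 lay above the silent range in EV (ZDHHC2, ASAH1, CNOT7, VPS37A, LONRF1 and DLC1) and 4 within it (PDGFRL, MSR1, MTMR7 and SGCZ). The share is close to that of all genes given above. Likewise 6 were above the range on every EV array when the range was taken array by array. With the range ending at that 99th percentile, DLC1 was inside it and 5 genes were above, and with the 90th percentile, 4.28, PDGFRL and TUSC3 itself lay above.

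**Figure D2:**
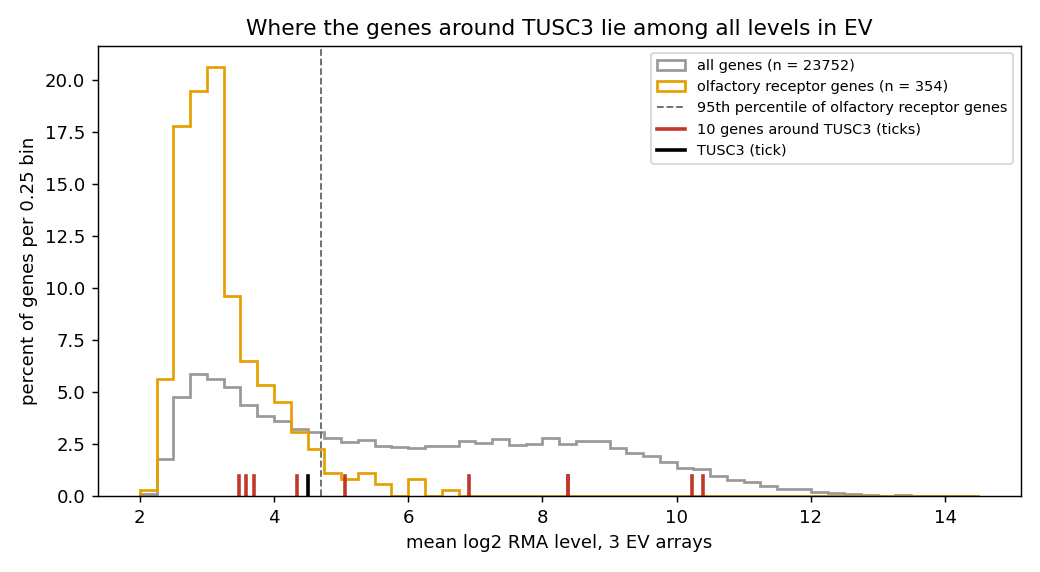
Distribution of mean log2 RMA levels on the 3 EV arrays (horizontal axis) as the percent of genes per bin (vertical axis), for 23752 genes in grey and 354 olfactory receptor genes in orange, with the 10 genes around TUSC3 as red ticks and TUSC3 as a black tick. The ticks fall into a group at 3.48 to 5.05 that overlaps the olfactory receptor genes and a group from 6.90 upward that lies beyond the highest of them.

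ZDHHC2 encodes a palmitoyltransferase, an enzyme that attaches fatty acids to membrane proteins. It had 10.33, 10.30 and 10.37 in TUSC3 arrays, against 10.34, 10.47 and 10.36 in EV arrays. The groups overlapped, and the EV mean was at the 95.3 percentile of all genes. ASAH1 encodes the lysosomal acid ceramidase, which cleaves ceramide into sphingosine and a fatty acid. It had 10.08, 10.16 and 10.23 in TUSC3 arrays, against 10.13, 10.26 and 10.28 in EV arrays. These values overlapped too, at the 94.4 percentile.

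CNOT7 encodes a catalytic deadenylase of the CCR4-NOT complex, which shortens the poly(A) tails of messenger RNAs. It had 8.82, 8.24 and 8.26 in TUSC3 arrays, against 8.45, 8.39 and 8.29 in EV arrays. TUSC3 replicate 1 stood 0.56 above the next TUSC3 array, whereas the other TUSC3 arrays were below all EV arrays. The spread of CNOT7 in TUSC3 (SD 0.33, n = 3) exceeded that of 95.6% of genes, and in EV it was 0.079 (SD, n = 3). Replicate 1 of TUSC3 is also the array whose deposited values were rounded differently from the others, with 22765 distinct values against 9648 on each other array. Sorted by size, the values of that array differed from those of EV replicate 1 by at most 0.0018. The part of the rounding in the CNOT7 value was not tested.

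VPS37A encodes a subunit of ESCRT-I, which sorts ubiquitinated membrane proteins into multivesicular bodies. It had 8.33, 8.57 and 8.69 in TUSC3 arrays, against 8.45, 8.37 and 8.31 in EV arrays. Replicates 2 and 3 of TUSC3 were above the EV arrays and replicate 1 lay among them. LONRF1 encodes a protein with RING finger and LON-type domains. It had 6.83, 6.81 and 6.86 in TUSC3 arrays, against 6.76, 6.94 and 6.99 in EV arrays, with the TUSC3 values inside the EV range.

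DLC1 encodes a GTPase-activating protein, which switches its target GTPases off. It had 5.26, 5.20 and 5.40 in TUSC3 arrays, against 5.04, 5.05 and 5.07 in EV arrays. Every TUSC3 array was above every EV array, and DLC1 was the 1 gene of the 10 whose groups did not overlap, a pattern found in 12.2% of all genes. Its EV mean was 0.35 above the upper end of the silent range, and 96.3% of olfactory receptor genes were at or below it, so this signal is weak. The EV arrays lay very close together (SD 0.015, n = 3), at the 2.13 percentile of EV spreads over all genes, while the TUSC3 arrays had an ordinary spread (SD 0.10, n = 3, the 48.9 percentile).

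The 4 genes within the silent range had overlapping groups. SGCZ, a sarcoglycan of the muscle membrane, had 3.55, 3.55 and 3.57 in TUSC3 arrays, against 3.58, 3.34 and 3.53 in EV arrays. MSR1, the class A scavenger receptor by which macrophages take up modified lipoproteins, had 3.58, 3.92 and 3.75 in TUSC3 arrays, against 3.74, 3.80 and 3.58 in EV arrays. The TUSC3 arrays lay inside the EV range for SGCZ and reached below and above it for MSR1. MTMR7, a phosphoinositide phosphatase of the myotubularin family, had 3.85, 3.56 and 3.81 in TUSC3 arrays, against 3.42, 3.56 and 3.75 in EV arrays. PDGFRL, a protein related to the extracellular part of the PDGF receptors, had 4.18, 4.33 and 4.33 in TUSC3 arrays, against 4.18, 4.51 and 4.35 in EV arrays. PDGFRL came nearest of the 4 to the upper end of the range, 0.36 under it.

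**Figure D3:**
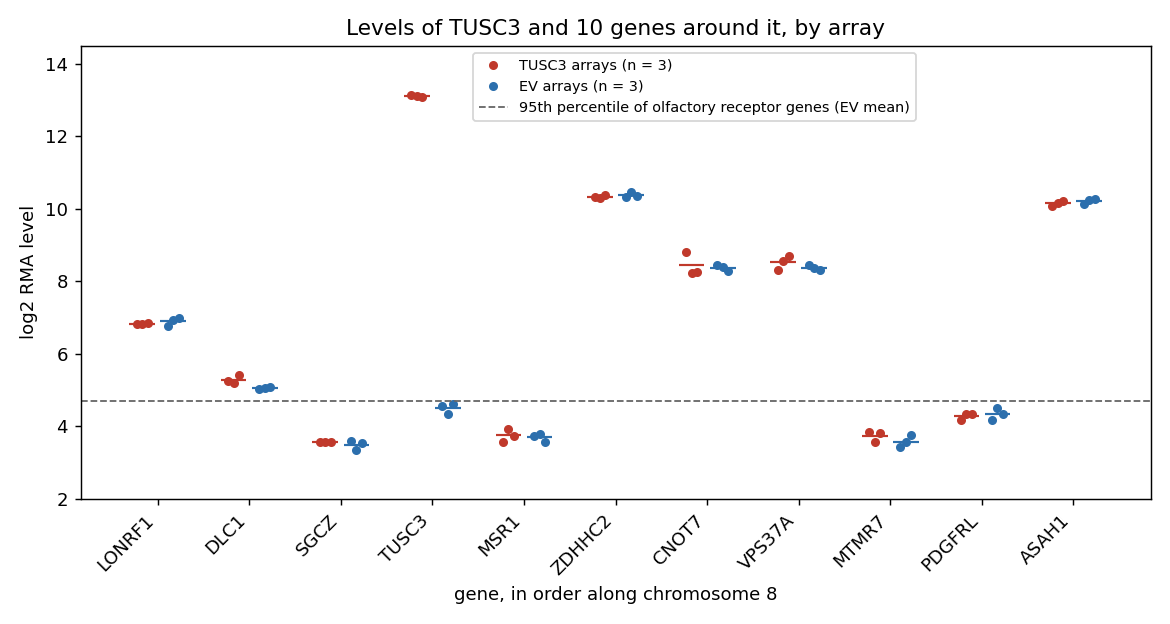
Log2 RMA level (vertical axis) of TUSC3 and the 10 genes in order along chromosome 8 (horizontal axis); each point is 1 array, TUSC3 in red at the left of each gene and EV in blue at the right, bars are means of 3 arrays, and the dashed line is the upper end of the silent range, 4.70. TUSC3 itself stands at 13.11 in TUSC3 arrays and 4.51 in EV arrays, while for the other genes the colours lie side by side; the raised CNOT7 point is TUSC3 replicate 1 at 8.82.

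None of the chromosomal neighbours differed between TUSC3 and EV past the threshold, an adjusted p under 0.05. With limma, 0 of the 10 genes passed, against 0.00421% of all 23752 genes, which is TUSC3 alone, and 1 of 10, DLC1, had an unadjusted p under 0.05, against 6.71% of all genes. The trended and robust variance prior left 0 of 10 at an unadjusted p under 0.05. Of the 10 differences 6 were above 0 and 4 below, with a median of 0.05, against 50.4% above 0 and a median of 0.00126 over all genes.

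DLC1 had the largest difference of the 10, 0.23 ± 0.075 (SE), and the 95% interval reached from 0.06 to 0.41 (limma, unadjusted p = 0.0164, adjusted p = 0.731). The signal ratio was 1.18, with bounds of 1.04 and 1.33. An exact two-sided permutation test gave p = 0.1, which is the lowest value possible with 3 arrays a side. By unadjusted p it ranked 522 among the genes. MTMR7 (0.16, interval -0.11 to 0.44) and VPS37A (0.16, interval -0.09 to 0.40) came next in size. Both depended on single arrays. VPS37A differed by 0.26 without TUSC3 replicate 1 (limma, unadjusted p = 0.0232, adjusted p = 0.838) and by 0.08 without TUSC3 replicate 3 (limma, unadjusted p = 0.485). MTMR7 differed by 0.25 without TUSC3 replicate 2 and by 0.08 without EV replicate 1.

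The other 7 differences lay between -0.07 and 0.07. SGCZ differed by 0.07 (-0.12 to 0.27), CNOT7 by 0.06 (-0.31 to 0.44) and MSR1 by 0.04 (-0.21 to 0.29). ZDHHC2 differed by -0.05 (-0.22 to 0.11), PDGFRL by -0.07 (-0.31 to 0.17), LONRF1 by -0.07 (-0.25 to 0.12) and ASAH1 by -0.07 (-0.25 to 0.11). SGCZ differed by 0.0011 without EV replicate 2 and by 0.12 without EV replicate 1. Adjusted p-values of these 7 ran from 0.891 to 0.960 (limma). Without TUSC3 replicate 1 the CNOT7 difference was -0.13 (adjusted p = 0.856). For 10 of 10 genes the 95% interval lay inside a change of 1.5-fold either way, as it did for 91.1% of all genes. The widest interval, that of CNOT7, ran from a ratio of 0.805 to 1.35. For the 4 genes within the silent range such bounds hold for array signal and say little of transcript amount.

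**Figure D4:**
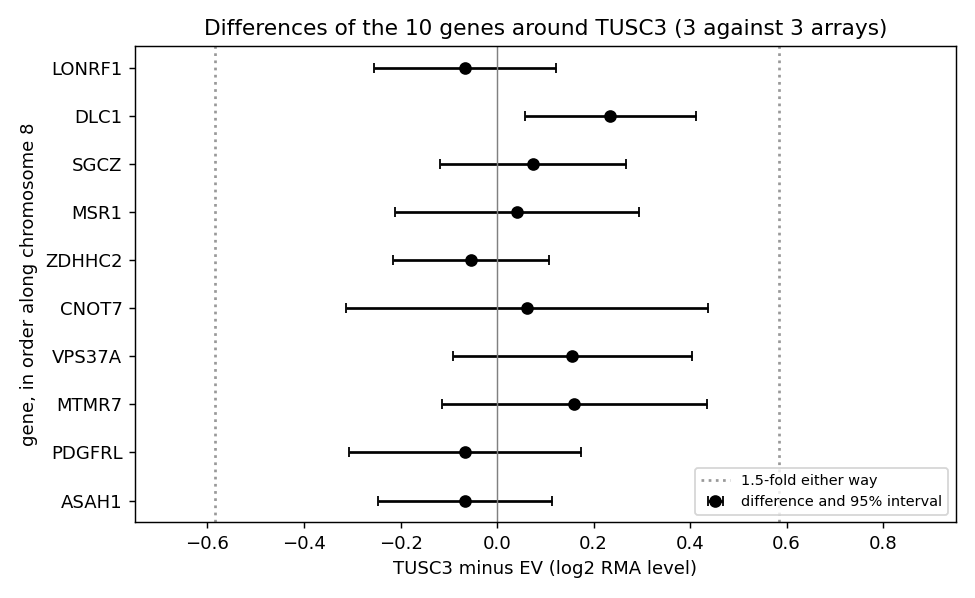
Difference TUSC3 minus EV in log2 RMA level (horizontal axis) for the 10 genes in order along chromosome 8 (vertical axis), with points for the limma estimate from 3 against 3 arrays, bars for its 95% interval and dotted lines at a change of 1.5-fold. The bars of 9 genes cross 0, that of DLC1 runs from 0.06 to 0.41, and none reaches a dotted line.

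The longer stretch of the arm also held no gene past the threshold. A list of 46 other genes on either side of TUSC3 had 42 measured members, of which 23 lay above the silent range in EV, against 58.9% of all genes. With limma 0 of 42 passed the threshold and 1 had an unadjusted p under 0.05, against 6.71% of all genes. Differences ran from -0.30 to 0.25 with a median of 0.04, and 24 were above 0, against 50.4% of all genes. The smallest p was that of MTUS1, which encodes a microtubule-associated protein, with 5.10 to 5.15 in TUSC3 arrays and 5.32 to 5.53 in EV arrays. Its TUSC3 arrays lay below its EV arrays, the difference was -0.30 with an interval of -0.48 to -0.12, and the adjusted p was 0.731 (limma). Groups did not overlap in 2 of the 42 genes, MTUS1 and PCM1, against 12.2% of all genes. FGF17, a fibroblast growth factor gene, had the next smallest p, with overlapping groups and a difference of 0.25 (-0.03 to 0.53, adjusted p = 0.756, limma). Its EV mean, 4.73, was barely above the upper end of the silent range, 4.70, and its EV arrays ran from 4.56 to 4.87. DLC1 and MTUS1, on opposite sides of TUSC3, thus had differences of opposite sign, neither past the threshold.

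**Figure D5:**
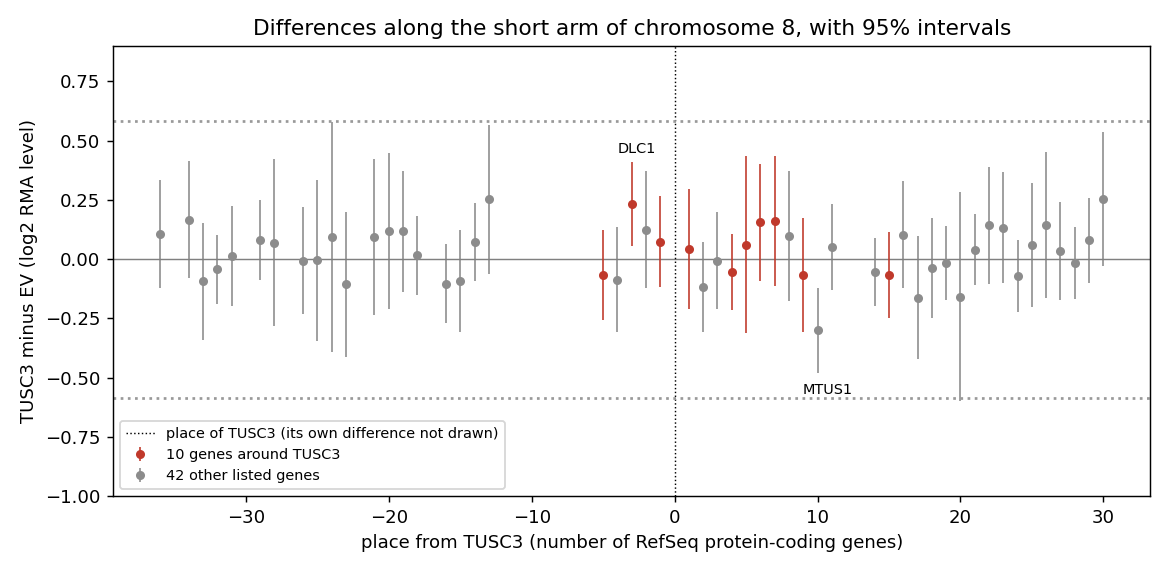
Difference TUSC3 minus EV in log2 RMA level with its 95% interval (vertical axis) against place from TUSC3 in RefSeq protein-coding genes (horizontal axis); red are the 10 genes around TUSC3, grey the 42 other listed genes, the vertical dotted line marks TUSC3, whose own 8.60 is not drawn, and the horizontal dotted lines mark a change of 1.5-fold. Points on both sides scatter around 0, between -0.30 (MTUS1) and 0.25 (FGF17 and DEFB134).

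Several genes around TUSC3 have paralogues elsewhere in the genome, and these were read beside them. The paralogues listed for SGCZ were not analysed here. Of 18 measured paralogues 11 lay above the silent range in EV, against 58.9% of all genes. The differences of the paralogues ran from -0.21 to 0.11. With limma 0 passed the threshold, against 0.00421% of all genes, and 0 had an unadjusted p under 0.05, against 6.71%. Groups did not overlap in 1 of 18, CNOT8, against 12.2% of all genes. CNOT8, the other CAF1-type deadenylase, had signal like CNOT7 above the range, 8.67 in TUSC3 and 8.72 in EV. VPS37B (8.23 in TUSC3, 8.25 in EV), VPS37C (6.37 in TUSC3, 6.54 in EV) and VPS37D (5.63 in TUSC3, 5.84 in EV), alternative ESCRT-I subunits, were above it as well. For ZDHHC2, the relative ZDHHC20 was at 10.64 in TUSC3 and 10.72 in EV, and ZDHHC15 at 3.14 in both groups, within the range. For ASAH1, the acid amidase gene NAAA was at 8.54 in TUSC3 and 8.49 in EV, and the neutral ceramidase gene ASAH2 at 3.34 in TUSC3 and 3.23 in EV. For LONRF1, LONRF3 was at 7.90 in TUSC3 and 7.93 in EV, and LONRF2 at 3.53 in TUSC3 and 3.51 in EV.

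Where the gene near TUSC3 was itself low, its relatives were not always so. MTMR6, the closest relative of MTMR7 beside MTMR8, was at 9.06 in TUSC3 and 9.09 in EV, and MTMR8 at 5.46 in TUSC3 and 5.50 in EV. PDGFRA (3.50 in TUSC3 and 3.43 in EV) and PDGFRB (3.91 in TUSC3, 4.09 in EV), the PDGF receptors, were within the silent range like PDGFRL. MARCO (3.89 in TUSC3, 3.79 in EV) and SCARA5 (4.51 in TUSC3, 4.44 in EV), class A scavenger receptors like MSR1, were within it too. The DLC1 relatives STARD8 (5.03 in TUSC3 and 5.07 in EV) and STARD13 (4.98 in TUSC3, 4.99 in EV) lay just above its upper end, where DLC1 itself lay.

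The complexes and pathways in which these genes act likewise held no gene past the threshold, with 0 of 147 measured members of 8 lists and the paralogues together (limma) and 2 at an unadjusted p under 0.05, against 6.71% of all genes. The shares to read the following counts against are 58.9% of all genes above the silent range and 50.4% with a difference above 0. In the list of CCR4-NOT and deadenylation genes, 21 of 22 members lay above the silent range and 8 differed upward. TNRC6B, which links microRNA complexes to CCR4-NOT, differed by -0.22 (-0.40 to -0.05) and CNOT2, a scaffold subunit, by -0.14. In the ESCRT list 20 of 20 lay above the range and 10 differed upward, with VPS37C at -0.17 and the ESCRT-I subunit UBAP1 at 0.15. In the ceramide and sphingosine list 20 of 23 were above it and 9 differed upward, with the saposin precursor PSAP at -0.15 and the glucosylceramide synthase UGCG at 0.13.

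Of the palmitoylation genes 25 of 27 lay above the range and 14 differed upward, with ZDHHC22 at -0.44 (-0.75 to -0.14) and the depalmitoylase ABHD17A at -0.42 (-0.94 to 0.11). Of the myotubularin and PI3P genes 16 of 16 were above it and 4 differed upward, with SBF1 at 0.15 and the lipid kinase PIKFYVE at -0.13. The adjusted p was 0.731 for TNRC6B and 0.731 for ZDHHC22, the 2 with an unadjusted p under 0.05 (limma).

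The remaining lists belong to SGCZ, MSR1 and PDGFRL, which had silent-range signal. Of the dystrophin-associated genes around SGCZ 7 of 10 were above the range, 5 differed upward, and SSPN was at -0.14 and SGCB at -0.07. Of the scavenger receptor genes around MSR1 7 of 13 were above it and 7 differed upward, with CXCL16 at -0.15 and SCARB2 at -0.14. Of the PDGF genes around PDGFRL 3 of 12 were above it and 8 differed upward, with differences from -0.24 to 0.32. KDR was at -0.24 (-0.08 without EV replicate 1) and PDGFRB at -0.18. Both had silent-range signal, KDR with 3.84 in TUSC3 and 4.08 in EV.

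Markers of the cells in which these genes are known were read beside them. Counts above the silent range are to be read against 58.9% of all genes and against 8 of 10 colorectal epithelium markers. Of 10 macrophage markers 4 lay above the silent range, with PTPRC at 2.66 in TUSC3 and 2.55 in EV, CD163 at 2.80 in TUSC3 and 2.88 in EV, and CSF1R at 5.52 in TUSC3 and 5.48 in EV. The brightest of them were LYZ (7.04 in TUSC3, 7.24 in EV) and CD68 (6.59 in TUSC3, 6.48 in EV), chosen after their values were seen. Of 8 muscle markers 3 did, with DES at 6.61 in TUSC3 and 6.78 in EV, ACTA1 at 4.41 in TUSC3 and 4.30 in EV, and CKM at 5.39 in TUSC3 and 5.36 in EV. Of 9 fibroblast markers 3 did, with COL1A1 at 6.42 in TUSC3 and 6.51 in EV, DCN at 2.70 in TUSC3 and 2.66 in EV, and PDGFRB as above. The mean level over the macrophage list ran from 4.39 to 4.45 on TUSC3 arrays and from 4.35 to 4.47 on EV arrays. That of the muscle list ran from 4.68 to 4.79 in TUSC3 and from 4.65 to 4.71 in EV, and that of the fibroblast list from 4.06 to 4.18 in TUSC3 and from 4.15 to 4.25 in EV. The groups overlapped in each of these ranges. In 3 single markers, also chosen after their values were seen, the TUSC3 arrays lay below the EV arrays without passing the threshold. Groups did not overlap in 1 of 10 macrophage, 1 of 9 fibroblast and 1 of 8 muscle markers, against 12.2% of all genes. The 3 markers were AIF1 (-0.22, unadjusted p = 0.0105, adjusted p = 0.731), THY1 (-0.33, unadjusted p = 0.0322, adjusted p = 0.741) and DES (-0.17, unadjusted p = 0.0511, adjusted p = 0.743, limma). Their part in the values of the genes around TUSC3 was not tested.

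The genes whose levels followed DLC1 most closely over the 6 arrays, among 13984 others above the silent range, were DLGAP4 (Pearson r = 0.984), TRIM40 (0.979) and PSPC1 (0.977), which lie on chromosomes 20, 6 and 13. An r of 0.95 or more was found for 27 of those genes. The 6 points share the contrast of TUSC3 with EV, so the values describe likeness in these arrays and carry no test.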

How the data were processed

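The deposited values are log2 levels that the authors made with RMA, per the submitters' processing notes. RMA corrects background, equalises array distributions and summarises probes. No source used here gives its version, the array model or a genome build. Of 25088 probe sets, the platform annotation gave 1 gene for 23752, several for 0 and none for 1336. Depth has no meaning for arrays, and their number, 3 per group, limits the precision. Gene order came from RefSeq (GRCh38.p14), and no coordinates were used.

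TUSC3 minus EV was estimated with limma (version 3.58.1; R version 4.3.3; lmFit, eBayes, two-sided) from the deposited log2 values of the 23752 genes, with Benjamini-Hochberg adjustment over all of them. On simulated data for this contrast over 23752 genes, the fit recovered 58% of 50 genes changed 1.5-fold and 88% of those changed 2-fold. The simulation also changed 50 genes 3-fold and 50 genes 4-fold at once. In the real data 1 gene passed the threshold, and with fewer changed genes the adjustment is stricter. The simulated shares therefore do not give the chance of finding a changed gene here.

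The members and lists were chosen with earlier results of these data known. By rule the text names the 10 genes and TUSC3, all measured paralogues and defining markers. The same rule names the 2 genes with the smallest p of the neighbour list and of each pathway list. Genes most like DLC1 are named as a description. Further neighbours and markers, KRT20 and CDH17 among them, were named with their values known. Deviations from the group means correlated at -0.014, 0.043 and -0.011 between arrays of equal replicate number, so the numbers were not taken as pairs. One pathway list is not reported here. No sequence is printed.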

Additional observations from a re-analysis of the deposited data

How the results depend on the processing

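Alternatives were quantile normalization again, a common median, removal of the dimmest 30% of probe sets, a trended and robust variance prior, array weights, all probe sets, the replicate block and leaving out each array. The count of genes past the threshold stayed at 0 for the 10 genes, for the 42 other genes of the arm and for the pathway lists in all 13 of these, and the TUSC3 difference stayed between 8.51 and 8.66. With the replicate block DLC1 had an adjusted p = 0.779 (limma), and the block changed no call. The labels do not say whether arrays of equal replicate number form pairs. Over the 13 alternatives DLC1 differed by 0.18 to 0.28 with an adjusted p of 0.632 to 0.838 (limma), and its unadjusted p was 0.0789 with the trended and robust prior. The number of the 10 genes at an unadjusted p under 0.05 was 0 with that prior and 2, DLC1 and VPS37A, without TUSC3 replicate 1. Without the dimmest 30%, which removed SGCZ, MSR1 and MTMR7, the median difference was -0.054 over 7 genes, because those 3 had differences above 0. Without 1 array the median ran from -2.71e-05 to 0.071. Without 1 array, 3 genes changed sign, none past the threshold: CNOT7 ran from -0.128 (without TUSC3 replicate 1) to 0.163, MSR1 from -0.044 (without TUSC3 replicate 2; -0.022 without EV replicate 3) to 0.127, and PDGFRL from -0.151 to 0.017 (without EV replicate 2); these fits hold fewer arrays. Others moved over 1.5-fold without changing sign: LONRF1 (-0.135 to -0.021), ASAH1 (-0.112 to -0.029), ZDHHC2 (-0.078 to -0.015), SGCZ (0.0011 to 0.124), MTMR7 (0.082 to 0.251), VPS37A (0.077 to 0.257), and, of the other named genes, KDR (-0.357 to -0.077), ABHD17A (-0.597 to -0.241), CNOT2 (-0.200 to -0.091), VPS37C (-0.244 to -0.090), UBAP1 (0.095 to 0.216), UGCG (0.085 to 0.161), SSPN (-0.205 to -0.063), SGCB (-0.125 to -0.042) and FGF17 (0.165 to 0.344). Apart from the values with another sign or call, 123 values of the 10 genes and 234 of the other named genes, these included, had the same sign and the same call. Between 5 and 7 genes lay above the silent range under its 8 alternatives, 5 also with keratin-associated, beta-defensin and taste receptor genes as the silent set (upper end 5.87). Without a detection call, a level near this range cannot be told from background.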
